A study of Mus musculus with 32 samples.

Results

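Complement and coagulation proteins circulate in plasma and are made mostly by the liver, and 39 genes of these cascades were followed here in mouse liver RNA. They were chosen by gene symbol from a list of complement components, clotting factors, their inhibitors and the enzymes that dissolve clots, and all 39 were found among the 24197 genes of the authors' deposited table. The study asked how blocking a liver microRNA changes liver mRNA, with locked nucleic acids (LNAs), short modified oligonucleotides that bind a microRNA by base pairing. All mice were of the outbred strain Crl:CD1(ICR), were 9 weeks old at injection and are labelled as 10 weeks old. Each received 2 subcutaneous doses of LNA on consecutive days, at 25 mg/kg each. Males received an LNA against miR-1948-5p (LNA-1948) and were killed on day 6 (5 mice) or day 3 (5 mice). Females received an LNA against miR-802-5p (LNA-802) and were killed on day 6 (5 mice) or day 3 (5 mice). The controls received a negative-control LNA of scrambled sequence and comprised 3 males and 3 females on each of day 6 and day 3. Each anti-miR LNA was compared with scrambled LNA in mice of the same sex and day. Neither anti-miR LNA was given to both sexes, so a difference between the anti-miR LNAs and one between the sexes cannot be told apart. Whether an effect would hold in the other sex is unknown. The day also goes with the series of libraries, so these cannot be told apart either. All mice, controls included, carried an injected LNA, and no untreated liver is part of the comparisons.

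Complement starts on antibody (classical pathway), on sugar patterns bound by mannose-binding lectins (lectin pathway) or by slow turnover in plasma (alternative pathway). These routes meet at C3, and the terminal components then assemble into a pore in the target membrane. In coagulation, a chain of proteases makes thrombin, which turns fibrinogen into fibrin. Antithrombin and the protein C system hold thrombin back, and plasmin dissolves the clot. Hepatocytes are the main source of most of these proteins.

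The oligonucleotides are shown because they define the groups. The LNA against miR-802-5p was complementary to bases 2 to 16 of the mature microRNA, and so covered its seed (bases 2 to 8, in capitals). The mature sequence is from RefSeq and lies on chromosome 16 of GRCm38.p6, plus strand, at chr16:93369737-93369758. The LNA sequences are from the labels.
LNA-802: gaatctttgttactg
scrambled LNA: acgtctatacgccca
mmu-miR-802-5p: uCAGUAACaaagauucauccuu

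The promoters of C6, C8a, C8b and C9 are shown because these 4 terminal complement genes had the widest differences between groups. Each runs from 250 bases before to 50 bases after the gene's start in RefSeq, on GRCm38.p6, and is written along the gene. C6 lies at chr15:4726960-4727259 (plus strand), C8a at chr4:104876349-104876648 (minus strand), C8b at chr4:104766067-104766366 (plus strand) and C9 at chr15:6445096-6445395 (plus strand). Capitals mark matches to any of 4 motifs searched on both strands.
C6 promoter: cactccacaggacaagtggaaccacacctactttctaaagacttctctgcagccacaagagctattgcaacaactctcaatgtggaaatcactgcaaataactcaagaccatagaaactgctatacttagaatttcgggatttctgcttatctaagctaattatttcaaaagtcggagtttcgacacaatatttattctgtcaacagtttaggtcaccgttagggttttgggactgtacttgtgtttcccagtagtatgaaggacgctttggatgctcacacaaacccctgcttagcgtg
C8a promoter: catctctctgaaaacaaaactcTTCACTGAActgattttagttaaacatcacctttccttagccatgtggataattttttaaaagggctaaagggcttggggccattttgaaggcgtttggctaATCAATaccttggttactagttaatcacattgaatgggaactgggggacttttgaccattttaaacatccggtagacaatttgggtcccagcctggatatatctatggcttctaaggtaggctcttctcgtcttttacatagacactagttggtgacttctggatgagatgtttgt
C8b promoter: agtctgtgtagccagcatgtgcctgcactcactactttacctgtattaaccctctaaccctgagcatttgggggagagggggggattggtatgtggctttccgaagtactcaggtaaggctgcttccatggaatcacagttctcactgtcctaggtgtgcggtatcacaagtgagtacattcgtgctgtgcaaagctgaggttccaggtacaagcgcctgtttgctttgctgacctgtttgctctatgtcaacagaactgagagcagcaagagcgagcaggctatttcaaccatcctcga
C9 promoter: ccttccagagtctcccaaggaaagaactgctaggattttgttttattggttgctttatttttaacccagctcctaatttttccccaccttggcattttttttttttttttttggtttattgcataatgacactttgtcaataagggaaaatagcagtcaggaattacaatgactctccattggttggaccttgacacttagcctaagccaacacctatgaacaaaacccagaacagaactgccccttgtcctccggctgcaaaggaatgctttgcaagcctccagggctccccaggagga

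The motifs were those of liver transcription factors, the growth hormone-activated factor STAT5 (TTCNNNGAA), HNF6 (ATTGAT), HNF4A (CAAAGTCCA) and C/EBP (TTGNGCAA). The C8a promoter held a STAT5 match that starts at base 23 and an HNF6 match that starts at base 125. No match to any of the 4 motifs was found in the windows of C6, C8b and C9. RefSeq promoters were matched for 30 of the 39 genes, with 31 windows in all. STAT5 matches were found in 7 of the 31 windows, against 8.30% of 32851 promoters of the same length, and HNF6 matches in 6, against 7.54%. C/EBP matches were found in 4 windows, against 2.94% of all promoters, and HNF4A matches in 0, against 0.475%. The STAT5 and HNF6 matches of C8a did not overlap. A match describes the letters of a window and was not tested for binding.

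Levels are the authors' mean FPKM of each group, fragments per kilobase of gene scaled to the size of the library, from the authors' deposited table. FPKM is scaled by gene length, which allows genes to be set side by side. The table holds no values for single mice, no counts and no depth, so group means stand without an error. Its adjusted p-values come from edgeR, which tested the authors' counts with the spread between mice, and a gene is called changed at an adjusted p under 0.05. Poly(A) RNA was measured, so the levels of the microRNAs themselves and their inhibition were not measured. In whole liver, fewer cells of a type and less RNA per cell cannot be told apart. The summed FPKM of all genes was 198940 to 206757 over the 8 groups, and 9004 to 9327 genes reached 1 FPKM. The 39 genes made up 4.83% to 5.15% of the summed FPKM. Of 11 hepatocyte marker genes found in the table, the summed level was 26844 to 36498 FPKM over the groups, while marker lists of platelets, neutrophils, T cells and B cells each summed to under 1.1 FPKM in every group.

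All 39 genes were above 1 FPKM in every group. Averaged over the 8 groups, 3 genes were above 1000 FPKM, 23 were above 100 FPKM and 16 were at or below 100 FPKM. Among all genes of the table, 10 of the 39 stood in the top 100 by level. Fgb, the fibrinogen beta chain, had the highest mean level of the 39 genes and ranked 12 among all genes, with Fgg at 13, C3 at 18, Fga at 22 and Vtn at 44. The lowest mean levels were those of Pros1 (protein S, 8.83 FPKM), C6 (17.5 FPKM) and C2 (21.8 FPKM).

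**Figure D1:**
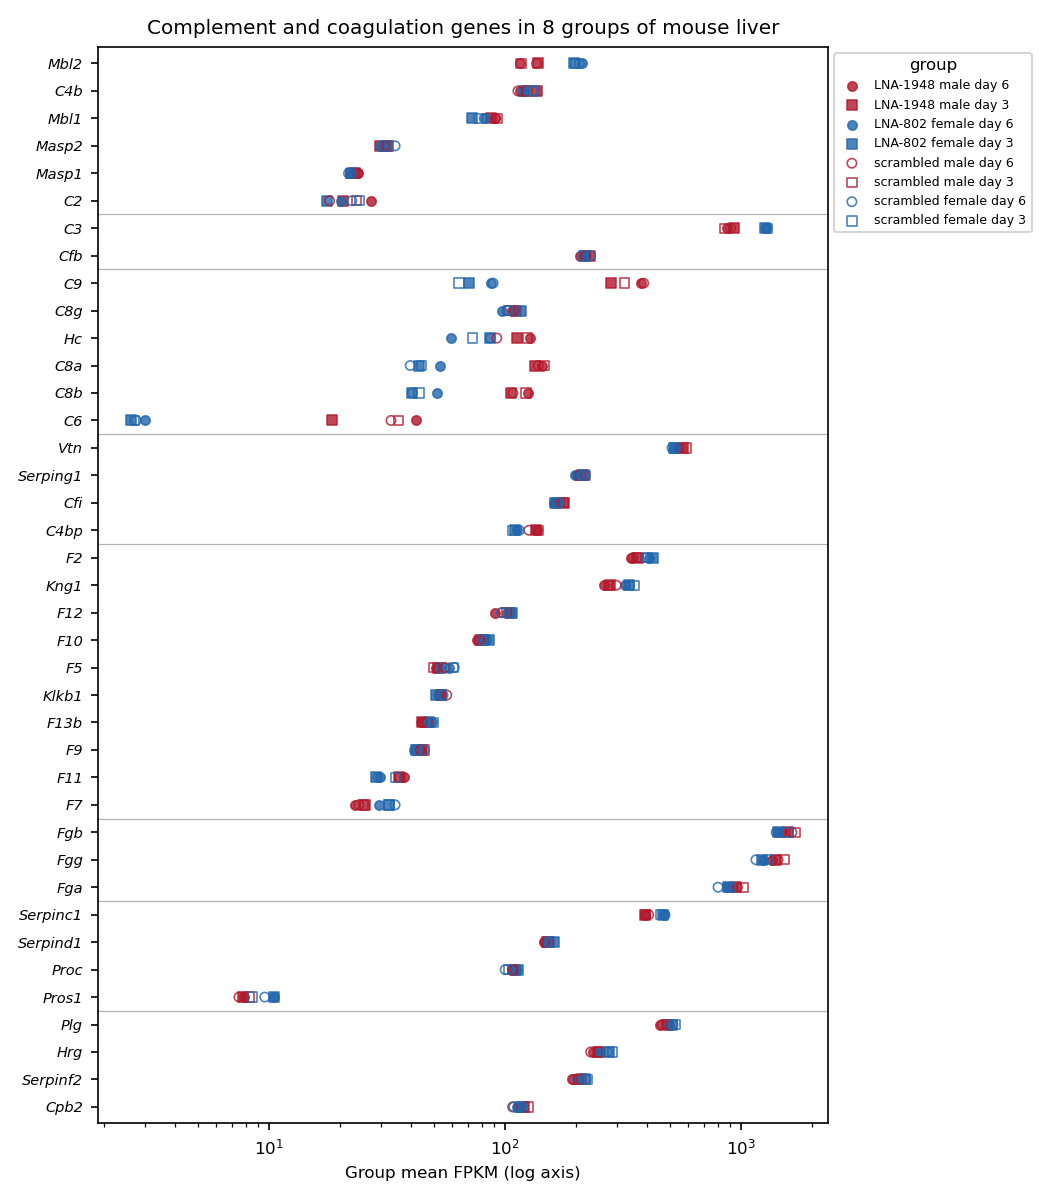
Mean FPKM of each of the 39 genes (log axis, each point the authors' mean of 1 group) in the 8 groups, with the genes split by role: classical and lectin pathway, C3 and alternative pathway, terminal pathway, complement regulators, clotting and contact factors, fibrinogen chains, anticoagulants, and fibrinolysis. Most genes form a tight cluster of 8 points, while C6, C9, C8a and C8b split into male points (red) on the right and female points (blue) on the left.

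Most of these genes varied little. Between the highest and the lowest of the 8 group means, the median gene of the 39 differed 1.22-fold, against 1.26-fold for all genes with at least 1 FPKM in a group. Of the 39 genes, 31 (79.5%) differed less than 1.5-fold, against 78.5% of all such genes. The 8 genes beyond 1.5-fold were C6 (16.1-fold), C9 (6.06-fold), C8a (3.70-fold), C8b (3.09-fold), Hc (2.18-fold), Mbl2 (1.84-fold), C2 (1.55-fold) and C3 (1.53-fold). All 8 belong to complement, and none to coagulation.

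Among scrambled-LNA mice, the genes with the widest differences between males and females were C6, C9, C8a and C8b of the terminal complement pathway, all higher in males, while C3, Mbl2 and, on day 6, F7 were lower in males. On day 6, 7 of the 39 genes were called, against 9.00% of all genes with at least 1 FPKM in either sex and 14.7% of those with at least 10 FPKM. On day 3, 7 were called, against 6.43% and 10.4%. At day 6, 4 genes were higher in males (background 4.09%) and 3 were lower (background 4.91%); at day 3, 5 were higher (background 2.87%) and 2 were lower (background 3.55%). In the authors' comparison of all scrambled males with all scrambled females, which pools the same mice over days, 10 were called, against 14.6% and 21.9%, with 7 higher (background 6.98%) and 3 lower (background 7.57%). Read as shares of 39, the counts of higher genes lie above the backgrounds named. The count of lower genes with the days pooled lies close to its background. Against genes with at least 10 FPKM, the called share was only a little above the background on day 6 and with the days pooled. The backgrounds of higher and of lower genes were taken at 1 FPKM only. None of these differences was tested. At an unadjusted edgeR p under 0.05, 12 of the 39 genes passed on day 6, 10 on day 3 and 16 with the days pooled, where 19.5%, 16.8% and 27.1% of all genes did. The median log2 ratio of males over females was 0.08 on day 6 and 0.02 on day 3 for the 39 genes, against 0.02 and 0.04 for all genes tested. With the ratio of mean FPKM in place of the authors' ratio the day 6 median was -0.02, and with the median of all genes subtracted the day 3 median was -0.01, so the sign of these medians depends on the scaling. All calls here rest on the edgeR p-values of the authors' deposited table.

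C6 binds C5b and nucleates the pore; the gene lies on chromosome 15 of mm9, at 4677209 to 4754045. Its mean level was 32.99 FPKM on day 6 and 35.4 FPKM on day 3 in scrambled males, against 2.74 and 2.70 FPKM in scrambled females. Anti-miR mice had 41.9 and 18.6 FPKM in LNA-1948 males and 2.99 and 2.61 FPKM in LNA-802 females on day 6 and day 3. Every male group mean stood far above every female one, and the lowest male mean was that of LNA-1948 males on day 3. In the authors' deposited table C6 was 12.8-fold higher in scrambled males than in scrambled females on day 6 (log2 3.68, edgeR adjusted p = 2.13e-88) and 13.3-fold higher on day 3 (log2 3.73, adjusted p = 6.81e-42). Ordered by log2 ratio with the highest first, C6 ranked 20 of 9488 genes on day 6 and 24 of 9462 on day 3.

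C9 polymerizes into the ring of the pore, and its gene lies on the same chromosome (6395332 to 6448476, mm9). It averaged 388 FPKM on day 6 and 323 FPKM on day 3 in scrambled males, against 89.4 and 64.1 FPKM in scrambled females. LNA-1948 males had 378 and 282 FPKM on those days and LNA-802 females 88.0 and 70.7 FPKM. The male and female group means did not overlap. The authors' deposited table gives a 4.61-fold higher level in males on day 6 (log2 2.21, edgeR adjusted p = 8.53e-14) and 5.09-fold on day 3 (log2 2.35, adjusted p = 3.83e-36).

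C8 is built of alpha, beta and gamma chains; the genes of the alpha and beta chains, C8a and C8b, were called by sex, and that of the gamma chain, C8g, was not. C8a (chromosome 4, 104488284 to 104549003, mm9) averaged 139 FPKM on day 6 and 147 FPKM on day 3 in scrambled males, against 39.8 and 44.4 FPKM in scrambled females. LNA-1948 males had 144 and 134 FPKM of C8a, and LNA-802 females 53.2 and 43.6 FPKM. C8a was 3.73-fold higher in scrambled males on day 6 and 3.36-fold higher on day 3 in the authors' deposited table (adjusted p = 5.81e-38 and 2.70e-17 by edgeR). C8b, 11130 bases from C8a on chromosome 4 (104438921 to 104477153, mm9), averaged 108 and 123 FPKM in scrambled males on day 6 and day 3, against 40.6 and 43.3 FPKM in scrambled females. LNA-1948 males had 125 and 106 FPKM of C8b, and LNA-802 females 51.8 and 40.6 FPKM. The authors' deposited table has C8b 2.85-fold higher in males on day 6 and 2.88-fold on day 3 (edgeR adjusted p = 5.04e-20 and 1.76e-11). For both neighbouring genes, all male group means lay above all female ones.

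C8g, whose product is joined to the alpha chain by a disulfide bond, lies on chromosome 2 and had similar levels in the sexes. It averaged 110 and 104 FPKM in scrambled males on day 6 and day 3, against 102 and 104 FPKM in scrambled females. Its log2 ratio of males over females was 0.20 on day 6 and 0.02 on day 3 in the authors' deposited table, and it was not called. The ratio of C8a to C8g, on the FPKM scale, was 1.26 and 1.41 in scrambled males, against 0.389 and 0.428 in scrambled females, on day 6 and day 3. It was 1.35 and 1.20 in LNA-1948 males, and 0.545 and 0.371 in LNA-802 females. The ratio of C8b to C8g was 0.986 and 1.18 in scrambled males, against 0.397 and 0.418 in scrambled females. In every male group C8a thus had a higher FPKM than C8g, and in every female group a lower one.

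**Figure D2:**
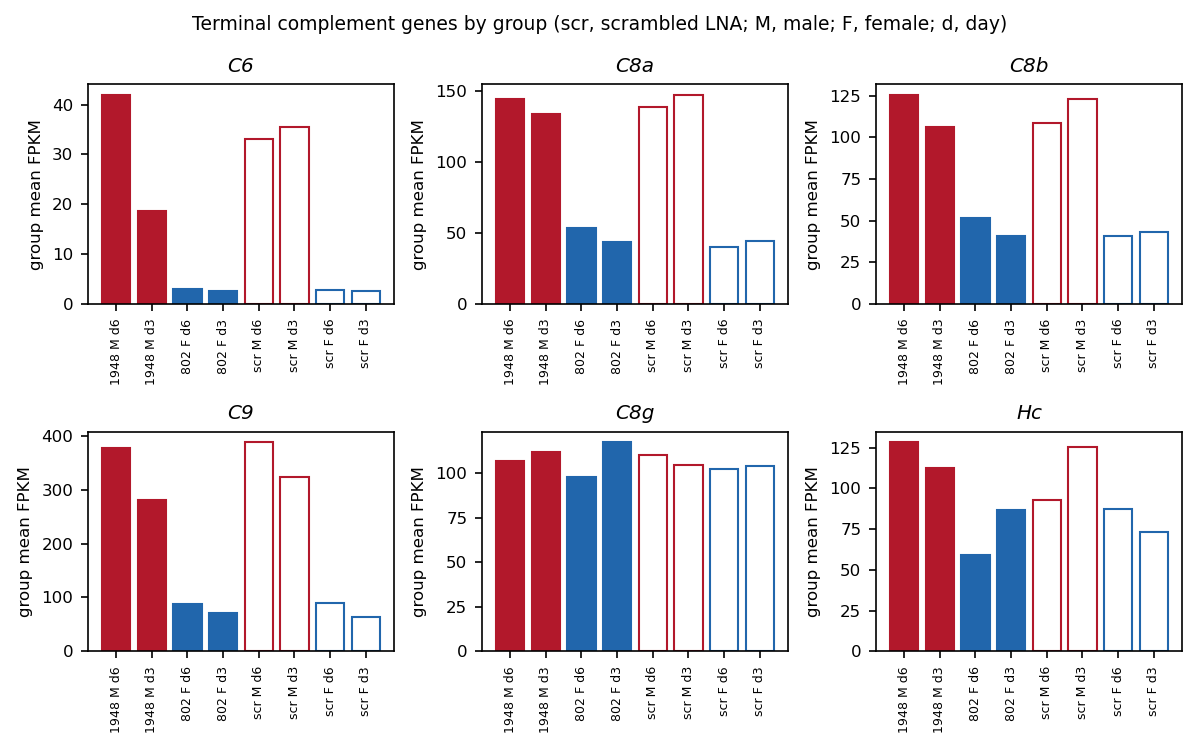
Mean FPKM (bars, the authors' mean of each group, axes from 0) of the 6 terminal pathway genes in LNA-1948 males, LNA-802 females, scrambled males and scrambled females on day 6 and day 3. C6, C8a, C8b and C9 are tall in all male groups and short in all female groups, C8g is level at 97.7 to 117 FPKM, and the C6 bar of LNA-1948 males on day 3 (18.6 FPKM) is the lowest male bar.

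Hc encodes C5, the protein whose cleavage starts pore assembly. It averaged 92.7 and 125 FPKM in scrambled males on day 6 and day 3, against 87.1 and 73.2 FPKM in scrambled females. LNA-1948 males had 128 and 113 FPKM, and LNA-802 females 59.0 and 86.5 FPKM. The lowest male mean was slightly above the highest female mean. Hc was 1.73-fold higher in males on day 3 (log2 0.79, edgeR adjusted p = 0.00888) and was not called on day 6 (log2 0.19), both in the authors' deposited table. The difference between the days was not called in a test of that difference, described with the other differences (adjusted p = 0.899 by an approximate z test).

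Summed over the 6 terminal genes, the level was 871 and 858 FPKM in scrambled males on day 6 and day 3, against 362 and 332 FPKM in scrambled females. It was 925 and 765 FPKM in LNA-1948 males, and 353 and 361 FPKM in LNA-802 females. Of the summed level of all 39 genes, the terminal pathway thus took 7.45% to 9.33% in the male groups and 3.23% to 3.68% in the female groups.

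C3, the component on which all complement routes converge, and Mbl2, the mannose-binding lectin C, were lower in males. C3 (chromosome 17, 57343395 to 57367559, mm9) averaged 907 and 853 FPKM in scrambled males on day 6 and day 3, against 1297 and 1303 FPKM in scrambled females. LNA-1948 males had 876 and 940 FPKM, and LNA-802 females 1281 and 1273 FPKM. In the authors' deposited table C3 was 1.34-fold lower in scrambled males on day 6 (log2 -0.42, edgeR adjusted p = 0.0426) and 1.51-fold lower on day 3 (log2 -0.59, adjusted p = 0.0115). Mbl2 (chromosome 19, 30307446 to 30314172, mm9) averaged 137 and 117 FPKM in scrambled males, against 208 and 200 FPKM in scrambled females. LNA-1948 males had 116 and 139 FPKM of Mbl2, and LNA-802 females 214 and 196 FPKM. It was 1.43-fold lower in scrambled males on day 6 (log2 -0.51, edgeR adjusted p = 0.0112) and 1.69-fold lower on day 3 (log2 -0.75, adjusted p = 0.000234) in the authors' deposited table. For both genes, every male group mean lay below every female one, opposite to C6, C8a, C8b, C9 and Hc.

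Mbl1, the other mannose-binding lectin, and C4bp, an inhibitor of the classical and lectin pathways, were called higher in males when the authors pooled the days, and on neither day alone. Mbl1 averaged 91.5 and 92.7 FPKM in scrambled males on day 6 and day 3, against 81.9 and 77.5 FPKM in scrambled females, with 91.0 and 87.8 FPKM in LNA-1948 males and 82.6 and 72.4 FPKM in LNA-802 females. C4bp averaged 127 and 139 FPKM in scrambled males, against 116 and 109 FPKM in scrambled females, with 138 and 136 FPKM in LNA-1948 males and 113 and 111 FPKM in LNA-802 females. The pooled ratios in the authors' deposited table were 1.20-fold for Mbl1 (edgeR adjusted p = 0.0287) and 1.23-fold for C4bp (adjusted p = 0.0161). The mannose-binding lectins Mbl2 and Mbl1 thus differed by sex in opposite directions.

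Of the coagulation and fibrinolysis genes followed so far, F7 alone was called by sex, on day 6 and with the days pooled. With tissue factor, F7 starts clotting. F7 averaged 24.1 and 25.2 FPKM in scrambled males on day 6 and day 3, against 34.3 and 32.4 FPKM in scrambled females, with 23.2 and 25.7 FPKM in LNA-1948 males and 29.3 and 32.2 FPKM in LNA-802 females. All male means lay below all female means. F7 was 1.33-fold lower in scrambled males on day 6 (log2 -0.42, edgeR adjusted p = 0.0396) and had a log2 ratio of -0.35 on day 3 (adjusted p = 0.387) in the authors' deposited table, and with the days pooled it was 1.30-fold lower (adjusted p = 0.00110 by edgeR). F10, its neighbour on chromosome 8 at 1497 bases, had log2 ratios of 0.00 and -0.05. In the same set, no other factor of the clotting cascade and contact system was called on either day. Nor was any of its anticoagulants (Serpinc1, Serpind1, Proc and Pros1) or fibrinolysis genes (Plg, Serpinf2, Cpb2 and Hrg). In the further lists given below, Kng2, F2r, Hgfac and Adamts13 were called by sex.

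The fibrinogen chains kept close proportions over the groups. Fga averaged 970 and 1023 FPKM in scrambled males on day 6 and day 3, against 803 and 905 FPKM in scrambled females, with 916 and 955 FPKM in LNA-1948 males and 875 and 885 FPKM in LNA-802 females. Fgb averaged 1652 and 1700 FPKM in scrambled males, against 1416 and 1588 FPKM in scrambled females, with 1500 and 1596 FPKM in LNA-1948 males and 1440 and 1442 FPKM in LNA-802 females. Fgg averaged 1442 and 1533 FPKM in scrambled males, against 1162 and 1311 FPKM in scrambled females, with 1354 and 1413 FPKM in LNA-1948 males and 1246 and 1230 FPKM in LNA-802 females. All male means lay above all female means for Fga and Fgg, whereas those of Fgb overlapped. Over the 8 groups the FPKM ratio of Fga to Fgb was 0.567 to 0.614 and that of Fgg to Fgb 0.820 to 0.903. On day 6 the log2 ratios of males over females were 0.41 for Fgg (edgeR adjusted p = 0.0607), 0.37 for Fga (adjusted p = 0.113) and 0.32 for Fgb (adjusted p = 0.284) in the authors' deposited table. All 3 were positive and none was called on either day. With edgeR p-values adjusted over the genes with at least 1 FPKM only, 9 of the 39 genes rather than 7 passed on day 6. The added genes were Fgg (edgeR adjusted p = 0.0302) and F11 (edgeR adjusted p = 0.0373), and with the days pooled Fgg was added (edgeR adjusted p = 0.0307).

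**Figure D3:**
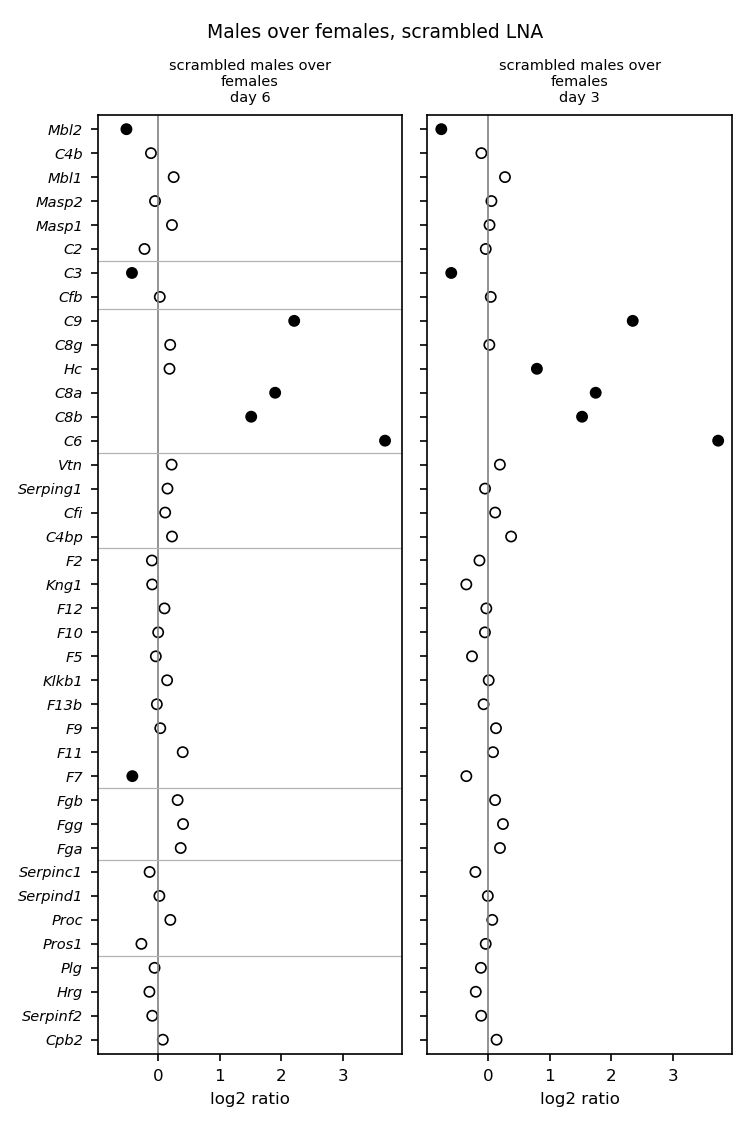
Log2 ratio of scrambled males over scrambled females in the authors' deposited table (x axis) for each of the 39 genes on day 6 and day 3, with genes split by role as in the plot of levels and filled points where the edgeR adjusted p is under 0.05. C6, C9, C8a and C8b stand between 1.51 and 3.73 on both days, Mbl2 and C3 stand left of 0 on both days, and most other points lie near 0.

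Each sex had 4 group means, from anti-miR and scrambled mice on each day. All 4 male means lay above all 4 female means for 11 of the 39 genes, against 12.1% of all genes with at least 1 FPKM in a group. These were C6, C8a, C8b, C9, Hc, Mbl1, C4bp, F11, Fga, Fgg and Vtn. All 4 male means lay below for another 11, against 17.8% of all genes. These were C3, Mbl2, F2, F7, F10, F13b, Pros1, Serpinc1, Plg, Kng1 and Hrg. For the remaining 17 the means overlapped. Counted this way, small differences enter, such as that of Serpinc1 (antithrombin), at 408 and 395 FPKM in scrambled males on day 6 and day 3, against 478 and 459 FPKM in scrambled females. Between the anti-miR groups, where LNA and sex cannot be told apart, the log2 FPKM ratio of LNA-1948 males over LNA-802 females was 3.81 on day 6 and 2.83 on day 3 for C6, 2.11 and 1.99 for C9, 1.44 and 1.62 for C8a, and 1.28 and 1.39 for C8b.

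Markers of other liver cell types also differed by sex. The summed level of the Kupffer cell markers, genes of the liver's resident macrophages, was 57.2 and 54.9 FPKM in scrambled males on day 6 and day 3, against 98.4 and 94.8 FPKM in scrambled females. Of the markers with at least 1 FPKM in both sexes, 10 of 11 on day 6 and 7 of 10 on day 3 were called lower in males in the authors' deposited table. Sinusoidal endothelial markers summed to 61.0 and 63.3 FPKM in scrambled males, against 73.6 and 77.2 FPKM in scrambled females, with 0 called on either day. Stellate cell and fibroblast markers summed to 39.7 and 42.5 FPKM, against 49.8 and 53.1 FPKM, with 0 called on day 6 and 1 lower on day 3. The 11 hepatocyte markers summed to 30999.4 and 28848.4 FPKM in scrambled males, against 33622.5 and 36498.4 FPKM in scrambled females. Of these 11, 2 were called higher in males on day 6 and 0 on day 3, with 0 called lower on either day. With the days pooled, 3 were called higher and 1, Alb, lower (1.29-fold, edgeR adjusted p = 0.0199). In the pooled comparison, 11 of 11 Kupffer cell, 2 of 10 endothelial and 3 of 7 stellate cell and fibroblast markers were called lower, and 0 higher. Of all genes, 6.98% were called higher and 7.57% lower there. Spp1, the only bile duct cell marker with at least 1 FPKM, was called higher in males on day 6 (1.98-fold, edgeR adjusted p = 0.00406). It was not called on day 3 or with the days pooled. The part of all these markers in the sex differences of the 39 genes was not tested.

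With neither anti-miR LNA was any of the 39 genes called by the authors' test. With LNA-1948 in males, 0 of 39 were called on day 6 (background 0.239% of genes with at least 1 FPKM) and 0 of 39 on day 3 (background 0.119%). With LNA-802 in females, 0 of 39 were called on day 6 (background 0.666%) and 0 of 39 on day 3 (background 0.0212%). With backgrounds this low, 0 of 39 does not set these genes apart from the rest. At an unadjusted edgeR p under 0.05 there were 4 genes with LNA-1948 on day 6 and 1 on day 3, and 2 with LNA-802 on each of day 6 and day 3, where 4.91%, 3.83%, 7.23% and 4.09% of all genes passed. The log2 ratio of LNA over scrambled was within 0.3 of 0 for 37 of 39 genes with LNA-1948 on day 6 and 38 on day 3, and for 36 with LNA-802 on day 6 and 37 on day 3. These are 94.9%, 97.4%, 92.3% and 94.9% of the 39 genes, near the 92.1%, 92.0%, 88.1% and 90.5% of all genes with at least 1 FPKM. Its median over the 39 genes was -0.08 and -0.01 for LNA-1948, and -0.00 and -0.05 for LNA-802, on day 6 and day 3, against 0.01, -0.01, 0.01 and 0.01 for all genes. On day 6 with LNA-1948, 30 of 39 ratios were below 0, where 4381 of 9200 genes were. On day 3 with LNA-802, 29 of 39 were, where 4386 of 9418 genes were. With the ratio of mean FPKM in place of the authors' ratio, these medians were -0.026 and -0.015, so the size of this tilt depends on the scaling.

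**Figure D4:**
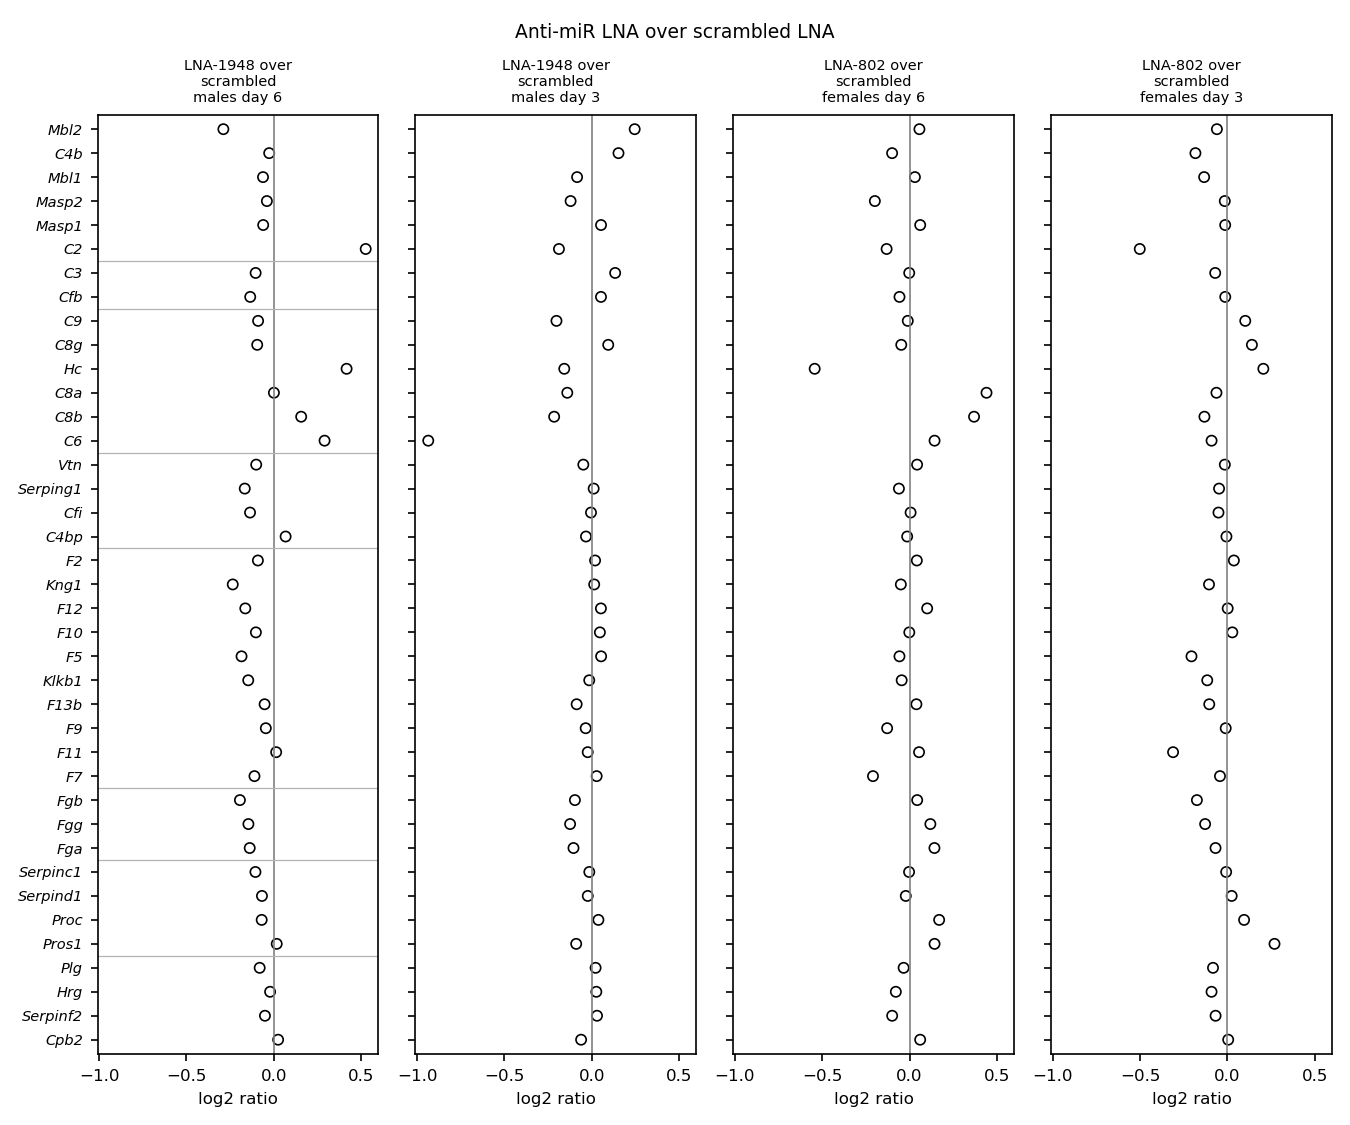
Log2 ratio of anti-miR LNA over scrambled LNA in the authors' deposited table (x axis) for each of the 39 genes in the 4 anti-miR comparisons, with open points since none had an edgeR adjusted p under 0.05. Most points lie within 0.3 of 0, and the points farthest out are C6 at -0.94 with LNA-1948 on day 3, Hc at -0.54 with LNA-802 on day 6 and C2 at 0.53 with LNA-1948 on day 6.

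C2 is the protease of the classical and lectin C3 convertase. It averaged 27.2 FPKM in LNA-1948 males on day 6, against 18.1 FPKM in scrambled males, and 20.6 FPKM on day 3, against 23.5 FPKM. In females it averaged 20.4 FPKM with LNA-802 on day 6, against 22.5 FPKM with scrambled LNA, and 17.6 FPKM on day 3, against 24.3 FPKM. The highest and the lowest of its 8 means both came from anti-miR mice. C2 was 1.44-fold higher with LNA-1948 on day 6 in the authors' deposited table (log2 0.53, edgeR adjusted p = 0.0673), the smallest adjusted p of the 39 genes there, and it was not called. Adjusted over the genes with at least 1 FPKM only, its p was 0.0323. With LNA-802 on day 3 its log2 ratio was -0.50 (edgeR adjusted p = 0.491, authors' deposited table). Cfb, the matching protease of the alternative pathway, lies 86 bases from C2 on chromosome 17, and had log2 ratios of -0.14 with LNA-1948 on day 6 and -0.01 with LNA-802 on day 3.

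C6 had the largest ratio of any of the 39 genes in an anti-miR comparison. Its level on day 3 was 18.6 FPKM in LNA-1948 males, against 35.4 FPKM in scrambled males, and on day 6 it was 41.9 FPKM, against 32.99 FPKM. The authors' deposited table gives a 1.91-fold lower level with LNA-1948 on day 3 (log2 -0.94, edgeR adjusted p = 0.122), which was not called, and a log2 ratio of 0.29 on day 6. Whether 1 mouse drove the day 3 mean cannot be read from group means. With LNA-802 the log2 ratios of C6 were 0.14 on day 6 and -0.09 on day 3, at mean levels of 2.61 to 2.99 FPKM in LNA-802 females and 2.70 to 2.74 FPKM in scrambled females.

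Of the other ratios beyond 0.3, those of C8a, C8b and Hc came from terminal genes and that of F11 from coagulation, and none was called. With LNA-802 on day 6, C8a had a log2 ratio of 0.44 (edgeR adjusted p = 0.573) and C8b of 0.37 (adjusted p = 0.566) in the authors' deposited table, and the ratio of C8a to C8g was 0.545 in LNA-802 females, against 0.389 in scrambled females. On day 3 the same neighbours had log2 ratios of -0.06 and -0.13. Hc had a log2 ratio of -0.54 with LNA-802 on day 6 (edgeR adjusted p = 1.0) and of 0.42 with LNA-1948 on day 6 (adjusted p = 0.786) in the authors' deposited table. Mbl2 gave the lowest ratio with LNA-1948 on day 6 (log2 -0.29) and the highest on day 3 (log2 0.25). Among the coagulation genes, without the further lists given below, the ratios farthest from 0 were those of F11 (log2 -0.31) and Pros1 (log2 0.27). Both came with LNA-802 on day 3. Pros1, the cofactor of protein C, averaged 10.6 FPKM in LNA-802 females, against 8.55 FPKM in scrambled females, on that day. On day 6 it averaged 10.5 FPKM in LNA-802 females, against 9.62 FPKM in scrambled females, and in males 7.87 and 7.77 FPKM with LNA-1948 on day 6 and day 3, against 7.48 and 8.24 FPKM. Vtn (vitronectin, an inhibitor of pore assembly) averaged 542 and 573 FPKM in LNA-1948 males on day 6 and day 3, against 559 and 591 FPKM in scrambled males, and 521 and 530 FPKM in LNA-802 females, against 512 and 522 FPKM in scrambled females. All 8 means of Vtn thus lay between 512 and 591 FPKM.

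During LNA-1948 treatment the Kupffer cell markers summed to 55.6 and 80.1 FPKM on day 6 and day 3, against 57.2 and 54.9 FPKM in scrambled males. On day 3 all 11 markers with at least 1 FPKM had positive log2 ratios and 0 were called by edgeR's adjusted p, with 10 at an unadjusted p under 0.05. Markers of other liver cells also had positive ratios on that day, 10 of 10 for sinusoidal endothelial cells and 7 of 8 for stellate cells and fibroblasts, with 0 called and 0 and 3 at an unadjusted p under 0.05. Their summed levels on day 3 were 70.3 and 45.4 FPKM in LNA-1948 males, against 63.3 and 42.5 FPKM in scrambled males. The part of these markers in the C6 value of that day was not tested. In females the Kupffer cell markers summed to 78.1 and 87.5 FPKM with LNA-802 on day 6 and day 3, against 98.4 and 94.8 FPKM with scrambled LNA. On day 6, 0 of 11 Kupffer cell marker log2 ratios were positive, 0 were called and 6 had an unadjusted edgeR p under 0.05. The part of the Kupffer cell markers in the C8a, C8b and Hc values was not tested.

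The differences between pairs of comparisons were tested by an approximate two-sided z test, with each log2 ratio's standard error taken from its unadjusted p-value in the authors' deposited table and adjustment over all genes with at least 1 FPKM. Of 5 pairs, 1 gave calls among the 39 genes. In LNA-1948 males, the effect on day 6 minus that on day 3 was called for 2 genes, against 0.504% of all genes. For C6 it was 1.23 ± 0.31 (approximate SE) on the log2 scale, with effects of 0.29 on day 6 and -0.94 on day 3 (adjusted p = 0.0246). For C2 it was 0.71 ± 0.19, with effects of 0.53 and -0.19 (adjusted p = 0.0319). Neither effect was called on either day by itself with the authors' adjustment over all genes. Adjusted over genes with at least 1 FPKM, as the z test was, C2 passed on day 6 (edgeR adjusted p = 0.0323). For LNA-802 on day 6 minus day 3 (background 0.0747%), for LNA-1948 in males minus LNA-802 in females on day 6 (background 0.492%) and on day 3 (background 0.257%), and for males over females on day 6 minus day 3 (background 0.309%), 0 of 39 were called. At an unadjusted z test p under 0.05 these pairs had 3, 2, 1 and 1 of the 39 genes, and the pair of days of LNA-1948 had 4. The share of all genes at that limit was not taken, so these counts stand without a background.

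To compare the days within a treatment, the log2 ratio of mean FPKM on day 6 over day 3 was taken with 1 FPKM added and is given without a test. The median over the 39 genes was -0.06 in LNA-1948 males, -0.00 in LNA-802 females, -0.05 in scrambled males and -0.02 in scrambled females. Ratios were within 0.3 of 0 for 36, 36, 37 and 38 of the 39 genes in that order of groups, or 92.3%, 92.3%, 94.9% and 97.4%, beside 94.5%, 95.8%, 94.5% and 94.2% of all genes. C6 in LNA-1948 males had the ratio farthest from 0, at 1.13. Hc had -0.54 in LNA-802 females and -0.43 in scrambled males, and C9 had a ratio above 0 in each group, at 0.43 in LNA-1948 males, 0.31 in LNA-802 females, 0.27 in scrambled males and 0.47 in scrambled females. The ratios within 0.3 of 0 include all fibrinogen chains, anticoagulants and fibrinolysis genes.

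Further genes of the same cascades were taken from lists of complement and of coagulation genes. Of 26 further complement genes, 25 were in the table and 16 had at least 1 FPKM in both sexes of scrambled mice on day 6. Of these 16, 3 were higher in scrambled males and 7 were lower by edgeR's adjusted p on day 6, where 4.09% of all genes were higher and 4.91% lower. On day 3 the counts were 1 higher and 4 lower of 16, where 2.87% and 3.55% of all genes were. With 1 FPKM required in either sex only, as for these shares of all genes, they were 3 and 8 of 17 on day 6. On day 3 they were 1 and 4 of 17. The higher ones were C4a (14.2 FPKM in males against 2.16 FPKM in females, 7.06-fold), C1ra (1.49-fold) and the pore inhibitor Clu (1.39-fold) in the authors' deposited table. C4a and C4b are near-identical copies, and how reads were split between them is not given in the sources used here, so their levels are uncertain. C4b itself averaged 114 and 124 FPKM in scrambled males on day 6 and day 3, against 132 and 134 FPKM in scrambled females. The lower ones of the 16 were C1qa, C1qb, C1qc, Cfp, Fcna, Colec10 and Vsig4, and Itgb2 was added among the 17. Several of these, such as C1qa at 6.94 FPKM in males against 11.6 FPKM in females, are made by macrophages, and C1qa, C1qb, C1qc and Vsig4 were also on the list of Kupffer cell markers. The part of the macrophage markers in these differences was not tested.

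Of 27 further coagulation and fibrinolysis genes, 14 had at least 1 FPKM in both sexes of scrambled mice on day 6. Of these 14, 1 was higher in males and 1 lower. With 1 FPKM required in either sex only, 1 of 15 was higher and 2 were lower, where 4.09% and 4.91% of all genes were. The added lower gene was Adamts13, at 0.865 FPKM in males against 1.63 FPKM in females (1.77-fold lower, edgeR adjusted p = 5.33e-05). F2r, a thrombin receptor, was 1.75-fold higher in males on day 6 and 2.03-fold higher on day 3 (edgeR adjusted p = 0.0106 and 0.000134, authors' deposited table). Hgfac, the protease that activates hepatocyte growth factor, was the lower one of the 14 on day 6, at 23.9 FPKM in males against 35.4 FPKM in females. On day 3, 1 of the 15 genes with 1 FPKM in either sex was higher and 1 lower, where 2.87% and 3.55% of all genes were. The lower one was Kng2, at 31.9 FPKM in males against 45.4 FPKM in females (1.41-fold lower, edgeR adjusted p = 0.0433). With the anti-miR LNAs, 0 genes of these further complement and coagulation lists were called on either day by edgeR's adjusted p. At an unadjusted edgeR p under 0.05 there were 1 of 16 complement and 1 of 14 coagulation genes with LNA-1948 on day 6. On day 3 there were 6 of 16, all 6 with positive ratios, and 0 of 15. With LNA-802 there were 5 of 17 (2 higher, 3 lower) and 1 of 15 on day 6, and 1 of 17 and 0 of 15 on day 3. Of all genes, 4.91%, 3.83%, 7.23% and 4.09% passed, in that order. The 6 and the 5 complement genes lie above these shares, which was not tested. Of 10 genes for hepatocyte transcription factors and IL-6 signalling, which drive many liver plasma protein genes, 0 were called with either LNA, and Il6ra, the IL-6 receptor, was the 1 called by sex on day 3, at 3.95 FPKM in scrambled males against 7.12 FPKM in scrambled females.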

How the data were processed

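Liver poly(A) RNA of 32 mice in 8 groups was sequenced with a strand-specific kit, per the labels. Reads were mapped with TopHat2 to mm9, counted with featureCounts and compared with edgeR, per the submitters' processing notes. Versions, the edgeR test and the strand setting of the counting are not given in the sources used here.

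The authors deposited 1 table, which per the file headers gives a mean FPKM for each group and, for 7 comparisons, a linear ratio with unadjusted and adjusted p-values. Recomputing the Benjamini-Hochberg adjustment over the 24197 genes gave the same adjusted values. Mean FPKM columns that repeat a group were not used. The table holds no counts and no values per mouse, so depth, spread and intervals are unknown, and the planned tests on counts were replaced by the authors' own. A comparison lists its genes in its own order, so every comparison was joined by symbol. Each library has its own code in the labels, and the mice were taken as separate animals on that basis. The titles of the scrambled females of day 6 repeat the same replicate number, although their codes differ. Whether these are separate animals could not be checked further.

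The 39 genes were matched by symbol. A gene was called at an adjusted p under 0.05, and backgrounds used genes reaching 1 FPKM, or 10 FPKM, in either group. Log2 ratios are of the authors' ratio, and day 6 over day 3 used mean FPKM with a pseudocount of 1. Differences between comparisons used an approximate z test, tested on simulated data. The simulated p-values came from the normal formula that the test inverts, and the simulated differences were larger than those of C6 and C2. The simulation thus does not show how the test does with edgeR p-values or with differences of that size. Work was done in python 3.11.15 with pandas 2.3.3, numpy 2.4.6 and scipy 1.17.1. RefSeq sequences are of GRCm38.p6 and coordinates of genes are those of the table, mm9. The members, the lists and the tests were chosen with earlier results of these data known. Named genes are those called in any comparison, those with the largest rise and fall in each anti-miR comparison, and the 5 highest and 3 lowest in level; other genes named were chosen after their values were seen.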

Additional observations from a re-analysis of the deposited data

Results flagged for a closer look

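In LNA-1948 males, the effect of the LNA on C6 differed between the days, by 1.23 on the log2 scale (day 6 minus day 3), and that on C2 differed by 0.71. Both passed the approximate z test of the difference, adjusted over genes with at least 1 FPKM. Adjusted over all genes with a z value, they also passed (z test adjusted p = 0.0325 for C6 and 0.0423 for C2). Neither gene was called by edgeR on either day in the authors' deposited table, which adjusts over all genes. Adjusted over genes with at least 1 FPKM, C2 passed on day 6 (edgeR adjusted p = 0.0323). The days also differ in the series of libraries, and no value per mouse was at hand with which to look for a sample that stands apart.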

How the results depend on the processing

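No paired analysis was possible because the table holds only group means. Leaving out a mouse in turn and a fit with a replicate block were not run for the same reason, nor was another normalization of counts. Of the alternatives run on counts of called genes, medians of the 39 genes and counts from the difference test, 68 moved a median by less than 0.1 (log2) or a count by less than 1.5 times and 11 moved it more. Of 35 alternatives for the medians of LNA or sex ratios, 5 changed the sign, all for males over females: -0.02 on day 6 (against 0.08) and -0.00 with the days pooled (against 0.05) by the ratio of mean FPKM with either pseudocount, and -0.01 on day 3 (against 0.02) with the median of all genes subtracted. With LNA-1948 on day 6, the count of called genes of the 39 was 1 when p-values were adjusted over genes with at least 1 FPKM (C2, adjusted p = 0.0323), 1 at an adjusted p under 0.1 and 4 at an unadjusted p under 0.05, against 0. At an unadjusted p under 0.05 it was 1 with LNA-1948 on day 3, and 2 with LNA-802 on each of day 6 and day 3, against 0. For scrambled males over females on day 6 it was 12 at an unadjusted p under 0.05, 4 at an adjusted p under 0.01 and 4 with a 1.5-fold change required, against 7. For both days pooled it was 16 unadjusted and 5 with a 1.5-fold change required, against 10. These follow from the looser or stricter rule. C6, C8a, C8b and C9 stood beyond 1.5-fold on each day, so C3, Mbl2 and F7 are the calls nearest the limit on day 6. Of 64 alternatives for single genes, 63 kept their direction and side of the threshold, and the other 1 was classed as stronger. Requiring 1 FPKM in both sexes for the further lists and markers was chosen after seeing the data. Depth is unknown, so what it limits could not be stated.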

Other observations

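Of 18 acute phase genes outside the 39, 0 were called higher and 3 lower in scrambled males than in scrambled females on day 6, and 0 and 4 on day 3, by the edgeR calls of the authors' deposited table. Of all genes with at least 1 FPKM, 4.09% were higher and 4.91% lower on day 6, and 2.87% and 3.55% on day 3. Fgl1, a fibrinogen-like protein secreted by hepatocytes, had 61.8 FPKM in scrambled males on day 6, against 241 FPKM in scrambled females, and 58.8 FPKM on day 3, against 220 FPKM. It was 3.66-fold lower in males on day 6 and 3.68-fold lower on day 3 (edgeR adjusted p = 3.11e-26 and 3.07e-09, authors' deposited table), while the fibrinogen chains themselves had positive log2 ratios on both days. Orm2, an orosomucoid, was 4.52-fold lower in males on day 6 and 3.02-fold lower on day 3 in the authors' deposited table, and Lcn2, an iron-scavenging lipocalin, 3.56-fold and 4.24-fold lower.

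Saa1 and Saa2, serum amyloid A genes, were called lower with LNA-802 on day 6. Saa1 averaged 9.19 FPKM in LNA-802 females, against 25.9 FPKM in scrambled females, a 2.78-fold lower level (edgeR adjusted p = 1.99e-05, authors' deposited table). Saa2 averaged 3.76 FPKM in LNA-802 females, against 11.4 FPKM in scrambled females, a 2.98-fold lower level (edgeR adjusted p = 3.59e-05, authors' deposited table). Saa1 and Saa2 are close copies, and their levels are uncertain. None of the 39 complement and coagulation genes was called in that comparison.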
